A study of Mus musculus with 8 samples.

Results

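The genes described here encode the nuclear subunits of oxidative phosphorylation (OXPHOS), the 4 complexes of the mitochondrial respiratory chain and the ATP synthase. They were taken as every row whose symbol begins with Nduf and a letter of the subunit classes a, b, c, s or v and a digit, is Sdha, Sdhb, Sdhc or Sdhd, or begins with Uqcr, Cox4 to Cox8 or Atp5, with pseudogene symbols (ending in -ps) left out. This gave 84 of 23997 genes, of which 37 belong to complex I, 4 to complex II, 8 to complex III, 18 to complex IV and 17 to complex V, the ATP synthase. The rule used symbols and no measured value, but it was set with earlier results of these data known. Of the 84 genes, 81 reached 1 FPKM in at least 2 libraries and were tested, FPKM being fragments divided by transcript length and by the size of the library. The other 3, Cox7b2, Cox8b and Cox8c, all belong to complex IV. The complexes follow the symbols. Ndufa4, counted here with complex I, is now placed in complex IV, and Atp5s and Atp5sl are not structural subunits of the synthase.

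The 8 RNA libraries came from leukemic marrow of C57BL/6 mice and fall into 3 groups by what the marrow had been transduced with. In AE+Meis2 (n = 3, median latency 171 days) this was the fusion gene AML1-ETO together with the homeobox gene Meis2. In AE9a+Meis2 (n = 3, 102 days) it was AML1-ETO9a, a shorter splice form of the fusion, together with Meis2, and in AE9a (n = 2, 138 days) AML1-ETO9a alone. In all groups marrow was taken from mice 4 days after 5-fluorouracil (5FU), cultured with IL3, IL6 and SCF, transduced, checked at 48 hours and given to lethally irradiated recipients, and RNA was isolated by TRIzol once the recipients had succumbed. Whole marrow was used, so host cells that survived irradiation may be part of each sample, and fewer cells of a type cannot be told apart from less RNA per cell. The labels name no donor, transduction or sequencing batch for a library, so a p-value reflects the spread among these libraries only, and that spread may be technical.

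Complexes I and II feed electrons from NADH and succinate to ubiquinone, complex III passes them to cytochrome c, and complex IV passes them to oxygen. Complexes I, III and IV pump protons, and the ATP synthase uses the returning protons to make ATP. Most subunits are encoded in the nucleus, and several of complex IV and the synthase exist as isoforms that differ between tissues such as heart, lung and testis. In acute myeloid leukemia, leukemic stem cells are known for a strong dependence on oxidative phosphorylation. The subunits encoded in mitochondrial DNA were not analysed here, because 0 of 26 symbols searched for them were among the deposited genes.

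Nuclear subunit promoters are known for sites of the nuclear respiratory factor NRF1, of GABP, an ETS factor, and of YY1. RefSeq promoter windows of 300 bases on GRCm38.p6 (250 before the start and 50 after it) were at hand for 69 members, in 75 windows. TGCGCA, the palindromic core of the NRF1 site, was found in 25.3% of them, against 7.76% of all 32851 windows. CCGGAAG, an ETS core, was found on either strand in 21.3%, against 8.86%. AAGATGG, a YY1 core, was found on either strand in 17.3%, against 6.34%, and GGGCGG, the GC box bound by SP1, on either strand in 38.7%, against 35.7%. No motif contains another. These are matches of letters, which say nothing of binding. The 5 windows below belong to members on which the results turn: Cox6b2 (minus strand, chr7:4753045-4753344), its ubiquitous counterpart Cox6b1 (minus strand, chr7:30626065-30626364), Ndufa4 (minus strand, chr6:11907401-11907700), and Ndufs5 (minus strand, chr4:123718137-123718436) and Cox7c (minus strand, chr13:86046746-86047045) as examples of an NRF1 and a YY1 match. They are written 5′ to 3′, with matches in capitals: a GC box in Cox6b2, an ETS core in Cox6b1, the NRF1 core in Ndufs5, a YY1 core in Cox7c and none of these letters in Ndufa4.
Cox6b2: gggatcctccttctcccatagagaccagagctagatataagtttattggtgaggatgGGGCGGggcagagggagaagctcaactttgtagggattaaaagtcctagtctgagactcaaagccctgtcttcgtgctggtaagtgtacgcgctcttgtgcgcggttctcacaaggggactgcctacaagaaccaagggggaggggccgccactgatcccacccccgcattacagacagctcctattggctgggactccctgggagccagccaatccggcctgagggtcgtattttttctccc
Cox6b1: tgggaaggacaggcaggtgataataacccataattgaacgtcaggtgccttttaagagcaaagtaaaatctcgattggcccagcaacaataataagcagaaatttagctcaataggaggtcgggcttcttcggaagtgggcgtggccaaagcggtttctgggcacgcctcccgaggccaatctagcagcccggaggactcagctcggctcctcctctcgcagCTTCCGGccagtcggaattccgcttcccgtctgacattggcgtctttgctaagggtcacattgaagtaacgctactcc
Ndufa4: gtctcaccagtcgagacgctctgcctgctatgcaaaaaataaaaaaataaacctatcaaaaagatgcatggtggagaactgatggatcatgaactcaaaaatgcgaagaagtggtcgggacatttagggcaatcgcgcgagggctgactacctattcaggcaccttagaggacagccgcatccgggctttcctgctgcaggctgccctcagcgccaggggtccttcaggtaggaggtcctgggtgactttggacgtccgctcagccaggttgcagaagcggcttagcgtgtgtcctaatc
Ndufs5: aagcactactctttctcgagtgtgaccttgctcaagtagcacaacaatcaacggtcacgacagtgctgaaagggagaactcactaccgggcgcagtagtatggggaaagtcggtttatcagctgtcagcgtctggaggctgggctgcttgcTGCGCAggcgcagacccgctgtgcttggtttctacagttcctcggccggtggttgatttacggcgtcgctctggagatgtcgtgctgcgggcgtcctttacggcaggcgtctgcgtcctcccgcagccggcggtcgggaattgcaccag
Cox7c: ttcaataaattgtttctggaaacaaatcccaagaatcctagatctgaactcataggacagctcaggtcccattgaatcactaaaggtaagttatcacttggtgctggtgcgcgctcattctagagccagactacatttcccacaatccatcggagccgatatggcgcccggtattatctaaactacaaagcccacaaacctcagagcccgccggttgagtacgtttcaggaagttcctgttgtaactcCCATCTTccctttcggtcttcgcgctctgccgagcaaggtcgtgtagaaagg

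Several libraries stood apart before any subunit was examined. Meis2 was at 13.1, 38.2 and 81.5 FPKM in AE+Meis2, against 621, 604 and 1277 FPKM in AE9a+Meis2 and 6.99 and 13.2 FPKM in AE9a. Runx1t1, the mouse ETO gene, was at 21.6, 223 and 218 FPKM in AE+Meis2, against 10.3 to 18.0 FPKM in AE9a+Meis2 and 26.8 and 23.4 FPKM in AE9a. Both transduced genes therefore went against the label of the library labelled AE+Meis2 replicate 1. Of 1543 genes of families silent in marrow, AE9a+Meis2 replicate 3 had 84.1% above 0 and AE9a replicate 1 had 72.1%, against 3.37% to 6.61% elsewhere. The blood cell markers Ptprc (39.4 to 298 FPKM), Spi1 (28.3 to 287) and Mpo (117 to 2484) were present in all 8 libraries.

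The subunit genes were among the abundant transcripts of these marrows. Their mean level over the 8 libraries had a median of 107.9 FPKM, against 12.9 FPKM over all 12565 genes tested, and 93.8% of tested members lay above the median tested gene. Means ran from 0.587 FPKM for Cox4i2 to 498 FPKM for Atp5b, the catalytic beta subunit of the synthase, and 46 members exceeded 100 FPKM. By complex, the median level was 77.9 FPKM in complex I, 90.3 in complex II, 123 in complex III, 148 in complex IV and 230 in complex V. After Atp5b, the highest levels of the other complexes were 474 FPKM for Cox4i1, the common form of cytochrome oxidase subunit 4, 348 for Uqcrh, the hinge protein of complex III, 312 for Ndufa4 and 136 for Sdhd, a membrane anchor of succinate dehydrogenase. Only 5 tested members had a mean of 10 FPKM or less: Atp5s, Cox4i2, Cox6a2, Cox7a1 and Ndufa4l2. The members also varied less than other genes across the libraries. The highest library over the lowest had a median of 1.65 among members, against 2.53 among all genes tested. It was 1.78 in complex I, 1.60 in complex II, 1.62 in complex III, 1.70 in complex IV and 1.53 in complex V. The part of their high level in this narrower range was not tested.

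**Figure D1:**
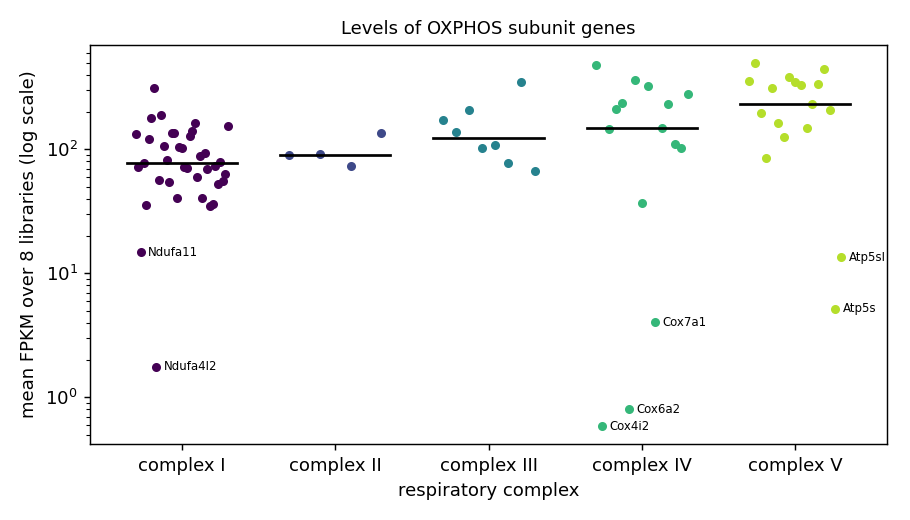
Mean FPKM over 8 libraries (log scale) of the 81 tested OXPHOS subunit genes by respiratory complex, 1 point per gene, with a line at each complex's median. Medians run from 77.9 FPKM in complex I to 230 FPKM in complex V, and genes below 20 FPKM are named.

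Under the deposited scaling, what variation there was followed single libraries more than groups. Each gene was set against its own median over the libraries, and the median deviation of the 81 members was then taken in each library. On the log2(FPKM + 1) scale it was 0.17, -0.35 and -0.06 in AE+Meis2 replicates 1, 2 and 3, against 0.13, 0.02 and -0.02 in AE9a+Meis2 and -0.02 and -0.05 in AE9a. The same value for all genes tested stayed between -0.04 and 0.02 in every library. Under the deposited scaling AE+Meis2 replicate 2 was the lowest, called the low library here, and the library labelled AE+Meis2 replicate 1 and AE9a+Meis2 replicate 1 were the highest. Which library was lowest depended on the scaling. AE+Meis2 replicates 2 and 3 were at -0.33 and -0.36 with quantile scaling and at -0.34 and -0.73 with each library scaled to its summed FPKM without small RNA, where all genes in replicate 3 were at -0.46. The other 6 libraries ran from -0.02 to 0.20 and from -0.04 to 0.18 under these scalings, with AE9a replicate 1 highest under the first and AE9a+Meis2 replicate 1 under the second. The members' share of that summed FPKM was 2.44%, 1.80% and 1.41% in AE+Meis2, against 2.12% to 2.54% in AE9a+Meis2 and 2.44% and 2.15% in AE9a. Under the deposited scaling the low library was low in all 5 complexes, at -0.37, -0.21, -0.35, -0.36 and -0.28 from complex I to complex V. The SD of these medians between replicates, pooled over the groups, was 0.17 for all members and 0.15 to 0.23 for the single complexes, larger than the median differences between groups given further on when all 8 libraries are used under the deposited scaling.

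**Figure D2:**
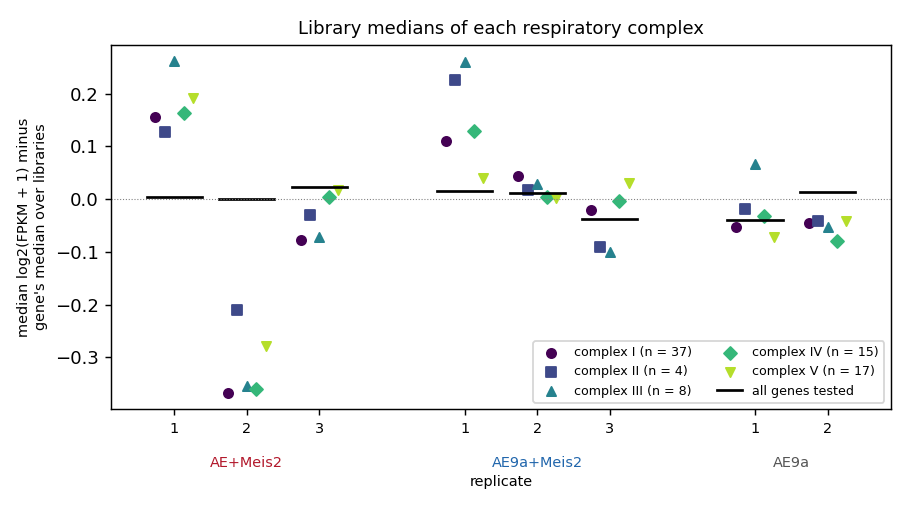
Median over each complex's tested genes of log2(FPKM + 1) minus the gene's median over libraries, by library (replicate number within group), with black bars for all 12565 genes tested. All 5 complexes lie at -0.21 or lower in AE+Meis2 replicate 2 and above 0 in the library labelled AE+Meis2 replicate 1 and in AE9a+Meis2 replicate 1.

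Single genes showed the same arrangement under the deposited scaling. Of the 81 members, 51 (63.0%) were lowest in AE+Meis2 replicate 2, as were 25.7% of all genes tested. These were 22 of 37 members of complex I, 3 of 4 of complex II, 6 of 8 of complex III, 10 of 15 of complex IV and 10 of 17 of complex V. The library labelled AE+Meis2 replicate 1 held the highest value of 35 members (43.2%), as against 8.48% of all genes, and AE9a+Meis2 replicate 1 that of 21 members (25.9%), as against 15.0%. In absolute terms the median member had 128, 90.1 and 108 FPKM in AE+Meis2, 128, 112 and 112 FPKM in AE9a+Meis2 and 106 and 105 FPKM in AE9a. As a description over 8 libraries that share 1 scaling each, the correlation of a member with the median of the other members had a median Pearson r of 0.71. It exceeded 0.7 for 45 members and was below 0 for 6: Ndufa4l2 (-0.77), Sdha (-0.54), Atp5s (-0.53), Atp5sl (-0.48), Ndufa4 (-0.19) and Cox6b2 (-0.19).

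**Figure D3:**
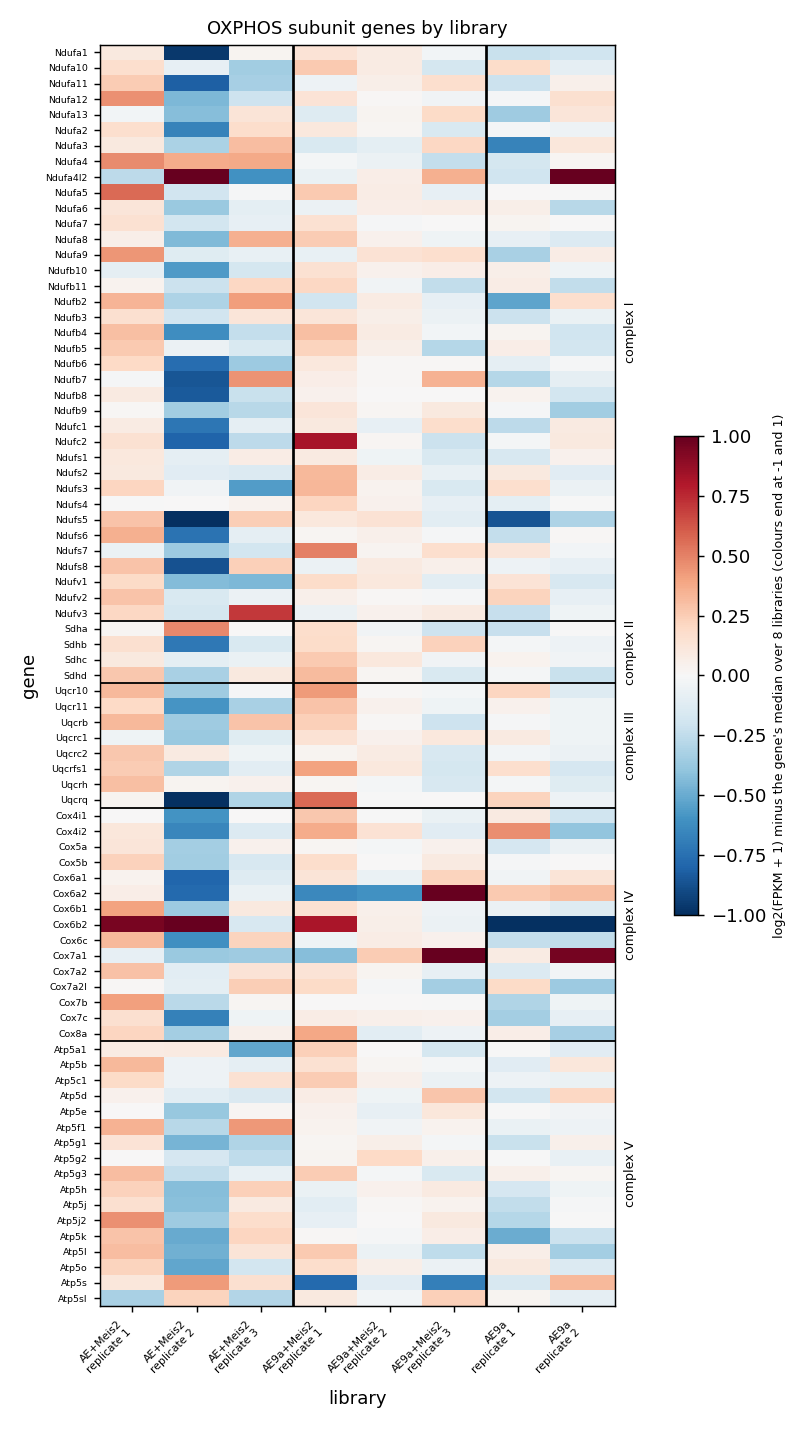
Each row is 1 of the 81 tested subunit genes, grouped by complex, and each column 1 library. Colour gives log2(FPKM + 1) minus the gene's median over the 8 libraries, cut at -1 and 1. The column of AE+Meis2 replicate 2 is blue (low) for most genes, with Ndufa4, Ndufa4l2, Sdha, Cox6b2 and Atp5s among the red exceptions.

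Other measures moved with the low library. By transcript length, the median deviation there was -0.38 for the 29 members of up to 600 nucleotides, -0.35 for 33 of up to 1000, -0.12 for 16 of up to 2000 and -0.31 for 3 longer ones. Among all genes above 16 FPKM the values for the same lengths were -0.14, -0.02, -0.02 and 0.06, closer to 0 in every class. Megakaryocyte markers summed to 95.5, 352 and 14.6 FPKM in AE+Meis2, against 11.8 to 16.5 in AE9a+Meis2 and 17.6 and 24.3 in AE9a, with 4 of 6 highest in the low library. Immediate early and heat shock genes, which handling of tissue can induce, summed to 1402, 186 and 3554 FPKM in AE+Meis2, against 1446 to 2353 in AE9a+Meis2 and 196 and 512 in AE9a, with 8 of 14 lowest there. Early myeloid markers summed to 3383, 556 and 6382 FPKM in AE+Meis2, against 645 to 3646 in AE9a+Meis2 and 538 and 1347 in AE9a, with 4 of 8 lowest there. For the last 2 lists AE9a replicate 1 was about as low.

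Neutrophil markers summed to 16383, 1813 and 190868 FPKM in AE+Meis2, against 2343 to 61045 in AE9a+Meis2 and 7993 and 31821 in AE9a. Of these 10 markers 4 were lowest in the low library, and S100a9 had a listed value of 0 in each AE+Meis2 library. Striated muscle markers, which would mark a tissue rich in OXPHOS transcripts, summed to 6.75, 14.0 and 2.75 FPKM in AE+Meis2, against 4.67 to 7.02 in AE9a+Meis2 and 5.32 and 4.18 in AE9a. Of these 9 markers 4 were highest and 2 lowest in the low library, where their sum was highest and Mb was at 0. Erythroid markers summed to 6520, 3496 and 725 FPKM in AE+Meis2, against 1461 to 3755 in AE9a+Meis2 and 1739 and 3390 in AE9a. Stromal and endothelial markers summed to 27.9 to 120 FPKM over the libraries, with 5 of 9 highest in the low library. Macrophage (188 to 521), B cell (29.0 to 110) and T and NK cell markers (12.9 to 121) had at most 1 lowest or highest member there. The part of transcript length, cell types and handling in the low subunit values was not tested.

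The first comparison asks what Meis2 adds to AML1-ETO9a. No subunit gene passed the test between AE9a+Meis2 (n = 3) and AE9a (n = 2). Limma with Benjamini-Hochberg adjustment over 12565 genes called 0 of 81 members, where 0.0478% of all genes were called. At an unadjusted p under 0.05 there was 1 higher member, Cox6b2, and 0 lower ones, against 1.93% and 1.13% of all genes. Small differences pointed mostly one way, 73 members being higher and 8 lower in AE9a+Meis2, where 49.8% of all genes were higher and 50.1% lower. The median log2 difference was 0.11 over members and -0.0011 over all genes, with a median SE of 0.25 for a single member. It was 0.11 in complex I, 0.14 in complex II, 0.08 in complex III, 0.12 in complex IV and 0.10 in complex V. Without AE9a+Meis2 replicate 1 the median was 0.06, 0.05, -0.03, 0.07 and 0.06 in turn, and without AE9a replicate 2 it was -0.01 in complex III. The split of members depended on the scaling: with quantile scaling 25 members were higher and 56 lower (median -0.08), and with each library scaled to its summed FPKM without small RNA 40 were higher and 41 lower (median -0.0025, against -0.12 over all genes). Without AE9a+Meis2 replicate 1 it was 54 higher and 26 lower (median 0.05), and without both libraries with values in silent families 61 higher and 18 lower.

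Under the deposited scaling every AE9a+Meis2 library lay above both AE9a libraries in 18 members (22.2%), as in 13.1% of all genes. In 0 members every one lay below, against 10.7% of all genes. Overlap was not examined under the other scalings, with which the split of members changed. By complex the 18 were 7 genes of complex I, 1 of complex II, 0 of complex III, 7 of complex IV and 3 of complex V. The complex IV genes were Cox5a, Cox5b, Cox6b1, Cox6b2, Cox6c, Cox7b and Cox7c, where subunits 5a and 5b bind on the matrix side of the enzyme and 6c, 7b and 7c cross the membrane. Cox6c was at 319, 347 and 339 FPKM in the AE9a+Meis2 libraries, against 279 and 277 FPKM in AE9a, a log2 difference of 0.27 ± 0.29 (SE). In AE+Meis2 it was at 411, 215 and 384 FPKM, on both sides of the other groups. Atp5k, subunit e of the synthase, which lies where synthase dimers meet, was at 355, 349 and 368 FPKM in the AE9a+Meis2 libraries, against 249 and 303 FPKM in AE9a (0.38 ± 0.27). Ndufs5, an accessory subunit of complex I named here after its values were seen, was at 43.6, 44.9 and 37.7 FPKM in the AE9a+Meis2 libraries, against 21.8 and 32.6 FPKM in AE9a (0.63 ± 0.53). The 3 AE+Meis2 libraries had 49.6, 13.9 and 48.3 FPKM of Ndufs5, the low library being far below the rest.

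The second comparison asks how the full-length fusion differs from the splice form, both with Meis2. Between AE+Meis2 (n = 3) and AE9a+Meis2 (n = 3) limma with Benjamini-Hochberg adjustment again called 0 of 81 members, where 0.0398% of all genes were called. At an unadjusted p under 0.05, 2 members were higher, Ndufa4 and Atp5s, and 1 was lower, Ndufs7, against 3.1% and 4.05% of all genes. Of the members 25 were higher and 56 lower, where 54.9% of all genes were higher and 45.1% lower, and the median log2 difference was -0.13, against 0.04 over all genes. From complex I to complex V the median was -0.14, -0.09, -0.16, -0.10 and -0.03. Under the deposited scaling the direction over all members turned without AE+Meis2 replicate 2: 45 were then higher and 35 lower (median 0.05). Without that library the medians of complexes I, IV and V were 0.03, 0.06 and 0.09, and that of complex III was still negative, at -0.008. Complex II turned to 0.01 without AE9a+Meis2 replicate 1. Without the library labelled AE+Meis2 replicate 1, 14 members were higher and 67 lower (median -0.22). With quantile scaling 8 were higher and 73 lower (median -0.25), and with scaling to the summed FPKM without small RNA 4 were higher and 77 lower (median -0.36, against -0.20 over all genes).

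The groups did not overlap for 3 members that were higher in AE+Meis2 (3.7%, against 7% of all genes), namely Ndufa4, Atp5s and Uqcrh, and for 5 that were lower (6.17%, against 6.49%). The 5 lower ones were Ndufs7, Ndufb9 and Ndufb10 of complex I, the core protein Uqcrc1 of complex III and Atp5g2, a gene for the rotating c ring of the synthase. Ndufs7, which carries the last iron-sulfur cluster before ubiquinone, was at 48.9, 39.3 and 44.7 FPKM in the AE+Meis2 libraries, 72.6, 51.9 and 57.4 FPKM in AE9a+Meis2 and 55.6 and 50.0 FPKM in AE9a. All AE+Meis2 values lay below the others, by -0.44 ± 0.19 on the log2 scale against AE9a+Meis2 (limma with Benjamini-Hochberg, adjusted p = 0.70) and by -0.25 ± 0.21 against AE9a. Ndufb10, an accessory subunit of the membrane arm, had 133, 95.4 and 125 FPKM in AE+Meis2, 157, 146 and 148 FPKM in AE9a+Meis2 and 147 and 137 FPKM in AE9a (-0.36 ± 0.17 and -0.27 ± 0.20 for AE+Meis2 against each). Uqcrc1 was at 101, 80.2 and 95.3 FPKM in the AE+Meis2 libraries, 115, 107 and 112 FPKM in AE9a+Meis2 and 111 and 101 FPKM in AE9a (-0.28 ± 0.16 and -0.20 ± 0.17). For these 3 genes the lowest library was AE+Meis2 replicate 2. The library labelled AE+Meis2 replicate 1 lay only just below AE9a replicate 2. Their values were 48.9 and 50.0 FPKM for Ndufs7, 133 and 137 FPKM for Ndufb10 and 101 and 101 FPKM for Uqcrc1.

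In the third comparison, AE+Meis2 (n = 3) against AE9a (n = 2), both the fusion and Meis2 differ, and it shares its libraries with the comparisons above, which share AE9a+Meis2 with each other. Limma with Benjamini-Hochberg adjustment called 0 of 81 members, where 0.0318% of all genes were called, and at an unadjusted p under 0.05 there were 2 higher members, Cox6b2 and Ndufa4 (2.95% of all genes), and 0 lower ones (3.03%). Members were divided into 38 higher and 43 lower, where 55.9% of all genes were higher and 44.1% lower, with a median of -0.03 against 0.06 over all genes. From complex I to complex V the median was -0.04, 0.06, -0.05, 0.05 and 0.06. The sign turned for complexes I and III without AE+Meis2 replicate 2 and for II, IV and V without the library labelled AE+Meis2 replicate 1. Leaving out an AE9a library also turned signs. Complex III was at 0.12 without AE9a replicate 1, and complex IV at -0.08 without AE9a replicate 2. Without AE+Meis2 replicate 2, 61 members were higher and 19 lower (median 0.12), and without the library labelled AE+Meis2 replicate 1, 27 were higher and 54 lower (median -0.11). With quantile scaling 6 were higher and 75 lower (median -0.31), and with scaling to the summed FPKM without small RNA 3 were higher and 78 lower (median -0.40, against -0.30 over all genes). The groups did not overlap for 5 higher members (9.96% of all genes), Cox6b2, Ndufa4, Ndufs4, Sdha and Uqcrh, and for 5 lower ones (8.66%), Cox6a2, Cox7a1, Ndufb10, Ndufs7 and Uqcrc1.

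**Figure D4:**
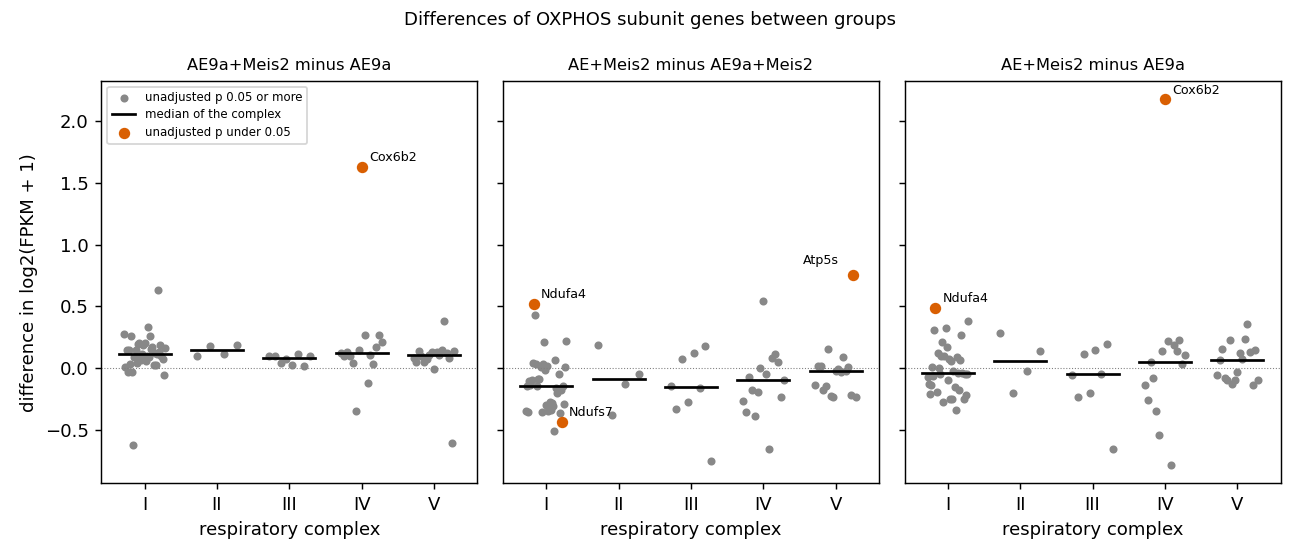
Difference in log2(FPKM + 1) of each tested subunit gene in the 3 comparisons, by complex, with a line at each complex's median and the genes at an unadjusted limma p under 0.05 named. Nearly all genes lie within 0.5 of 0, and Cox6b2 stands above them at 1.63 (AE9a+Meis2 minus AE9a) and 2.18 (AE+Meis2 minus AE9a).

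The gene that differed most in size was Cox6b2 (chromosome 7, 4751792 to 4753094, on GRCm38.p6), the testis form of subunit 6b, which faces the space between the mitochondrial membranes. It had 54.5, 90.1 and 24.7 FPKM in AE+Meis2 (56.4 ± 33, SD), 49.6, 28.9 and 26.5 FPKM in AE9a+Meis2 (35.0 ± 13) and 8.51 and 12.2 FPKM in AE9a (10.4 ± 2.6). Every library with Meis2 in its label lay above both AE9a libraries, and the AE+Meis2 and AE9a+Meis2 groups overlapped. The log2 difference from AE9a was 1.63 ± 0.53 in AE9a+Meis2 (limma, unadjusted p = 0.017, Benjamini-Hochberg adjusted p = 1.0) and 2.18 ± 0.53 in AE+Meis2 (unadjusted p = 0.0042, adjusted p = 0.47). Over 18 alternative settings these differences were 1.36 to 1.96 (adjusted p 0.35 to 1.0) and 1.75 to 2.67 (adjusted p 0.17 to 1.0). Without the library labelled AE+Meis2 replicate 1, whose own Meis2 level lay within that of AE9a, the second was 2.11. Between AE+Meis2 and AE9a+Meis2 the difference was 0.55 ± 0.48.

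Cox6b1, the form found in most tissues, differed far less. It had 470, 276 and 380 FPKM in AE+Meis2, 395, 368 and 342 FPKM in AE9a+Meis2 and 341 and 324 FPKM in AE9a, and its log2 differences from AE9a were 0.14 ± 0.25 in both. Cox6b2 therefore made up 10.4%, 24.6% and 6.10% of the summed subunit 6b FPKM in AE+Meis2, 11.2%, 7.29% and 7.21% in AE9a+Meis2 and 2.44% and 3.62% in AE9a. The highest share fell in AE+Meis2 replicate 2, where Cox6b1 was lowest and Cox6b2 highest. The GRCm38.p6 annotation shows no exon of another gene over Cox6b2.

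**Figure D5:**
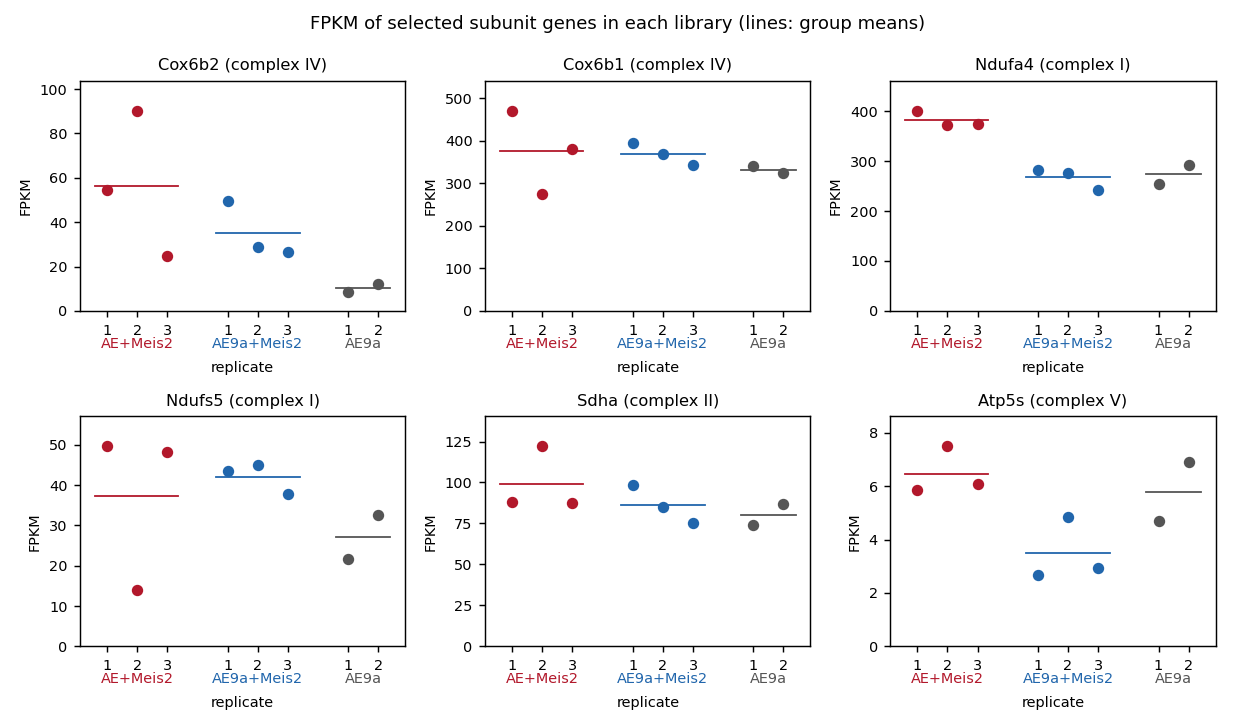
FPKM of 6 subunit genes in each library (replicate number within group), with lines at group means; axes start at 0. Cox6b2 is at 24.7 FPKM or more in all libraries of both Meis2 groups and at most 12.2 FPKM in AE9a, Ndufa4 is highest in the 3 AE+Meis2 libraries, and Ndufs5 and Sdha show AE+Meis2 replicate 2 low and high.

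Other isoform pairs of complex IV were almost wholly of the common form. Cox4i2, the lung form of subunit 4, was at 0 to 1.17 FPKM, at most 0.224% of both subunit 4 genes. Cox6a2, the heart and muscle form of subunit 6a, was at 0.794, 0 and 0.642 FPKM in the AE+Meis2 libraries, 0.0974, 0.128 and 2.55 in AE9a+Meis2 and 1.06 and 1.11 in AE9a. Its exons overlap Itgad on the opposite strand, and the TruSeq kit named in the labels does not mark strand, so the reads of these genes cannot be told apart. Cox7a1, the heart and muscle form of subunit 7a, had 2.83, 2.13 and 2.16 FPKM in AE+Meis2, 2.01, 3.83 and 9.26 in AE9a+Meis2 and 3.27 and 6.85 in AE9a, a share of 1.26% to 6.38% beside Cox7a2 at 131 to 177 FPKM. AE+Meis2 lay below AE9a for Cox7a1 by -0.79 ± 0.52, with groups that did not overlap.

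Of the untested members, Cox7b2 and Cox8c were above 0 in AE9a+Meis2 replicate 3 alone, at 0.133 and 0.162 FPKM, and that library had values in most silent families. Cox8b, the muscle form of subunit 8, was at most 0.762 FPKM, while the common form Cox8a was at 221 to 366 FPKM. Cox7a2l was at 235, 217 and 276 FPKM in the AE+Meis2 libraries, 266, 230 and 183 in AE9a+Meis2 and 266 and 181 in AE9a, with overlapping groups. Cox4i1 had 491, 322 and 490 FPKM in AE+Meis2, 590, 487 and 467 in AE9a+Meis2 and 520 and 425 in AE9a. Cox6a1, the common form of subunit 6a, was at 249, 140 and 222 FPKM in the AE+Meis2 libraries, 266, 232 and 284 in AE9a+Meis2 and 238 and 266 in AE9a (-0.39 ± 0.24 for AE+Meis2 against AE9a+Meis2). The lowest values of Cox4i1 and Cox6a1 were those of AE+Meis2 replicate 2, and Cox7b, a membrane subunit at 89.6 to 147 FPKM, had its second-lowest value there.

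Ndufa4 (chromosome 6, 11900372 to 11907450) was the most abundant gene counted with complex I. It had 400, 373 and 375 FPKM in AE+Meis2 (383 ± 15), 283, 276 and 243 in AE9a+Meis2 (267 ± 21) and 255 and 292 in AE9a (273 ± 26). All 3 AE+Meis2 libraries lay above the other 5, the low library and the library labelled AE+Meis2 replicate 1 included. The log2 difference was 0.52 ± 0.15 against AE9a+Meis2 (limma, unadjusted p = 0.011, Benjamini-Hochberg adjusted p = 0.57) and 0.49 ± 0.17 against AE9a (unadjusted p = 0.024, adjusted p = 0.72). It was smaller with other scalings, 0.40 and 0.08 with quantile scaling and 0.26 and 0.12 with scaling to the summed FPKM without small RNA. Over 18 alternatives the adjusted p was 0.33 to 1.0 and 0.60 to 1.0. A ratio to the median member of the same library needs no scaling between libraries, but it cannot tell a higher Ndufa4 from lower other members. That median was lowest in AE+Meis2 replicate 2, at 90.1 FPKM under the deposited scaling. Ndufa4 stood at 3.13, 4.14 and 3.48 times the median member in AE+Meis2. It stood at 2.22, 2.46 and 2.17 times in AE9a+Meis2 and 2.40 and 2.79 times in AE9a. Its relative Ndufa4l2, a hypoxia-induced gene, had 0.273, 7.66 and 0 FPKM in AE+Meis2, 0.453, 0.595 and 0.947 in AE9a+Meis2 and 0.329 and 3.87 in AE9a, but its exons overlap Shmt2 on the opposite strand.

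The other complex I genes named here did not pass either. Ndufa6, an accessory subunit, was at 214, 152 and 183 FPKM in the AE+Meis2 libraries, 189, 206 and 207 in AE9a+Meis2 and 204 and 162 in AE9a. Ndufb9, an accessory subunit of the membrane arm, had 172, 134 and 141 FPKM in AE+Meis2, 186, 173 and 183 in AE9a+Meis2 and 170 and 134 in AE9a. AE+Meis2 lay wholly below AE9a+Meis2 (-0.28 ± 0.17) and overlapped AE9a, and an exon of Gm49356 on the same strand overlaps Ndufb9.

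The 4 genes of complex II, the succinate dehydrogenase that also works in the tricarboxylic acid cycle, did not all follow one another. Over the 8 libraries Sdhb, Sdhc and Sdhd had Pearson r of 0.91, 0.75 and 0.83 with the median of the other members, and Sdha one of -0.54. Sdha, the flavoprotein that oxidizes succinate, was at 88.0, 122 and 87.2 FPKM in the AE+Meis2 libraries, 98.4, 85.0 and 75.0 in AE9a+Meis2 and 74.0 and 86.7 in AE9a. Its partner Sdhb, the iron-sulfur subunit, had 103, 55.9 and 82.6 FPKM in AE+Meis2, 105, 93.3 and 108 in AE9a+Meis2 and 91.0 and 89.0 in AE9a. In AE+Meis2 replicate 2 Sdha thus had its highest value and Sdhb its lowest. The membrane anchors Sdhc (66.6 to 85.9 FPKM) and Sdhd (107 to 168 FPKM) were also lowest in that library. Log2 differences of the 4 genes ran from -0.38 ± 0.24 (Sdhb, AE+Meis2 against AE9a+Meis2) to 0.28 ± 0.22 (Sdha, AE+Meis2 against AE9a), and none had an unadjusted p under 0.05.

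In complex III the largest differences came from the small subunit genes. Uqcrq was at 70.2, 24.7 and 55.7 FPKM in the AE+Meis2 libraries, 102, 68.6 and 68.8 in AE9a+Meis2 and 80.3 and 66.3 in AE9a, with log2 differences for AE+Meis2 of -0.75 ± 0.39 against AE9a+Meis2 and -0.65 ± 0.43 against AE9a. Uqcr11 had 161, 92.8 and 112 FPKM in AE+Meis2, 171, 145 and 136 in AE9a+Meis2 and 145 and 136 in AE9a (-0.33 ± 0.23 against AE9a+Meis2). AE+Meis2 replicate 2 was the lowest for both. Uqcrh went the other way, at 424, 351 and 355 FPKM in AE+Meis2, 349, 340 and 309 in AE9a+Meis2 and 340 and 316 in AE9a, all 3 AE+Meis2 libraries above the rest by 0.18 ± 0.16 and 0.20 ± 0.18. Uqcrb, at 155 to 249 FPKM, overlapped between all groups, and an exon of Gm10767 on the opposite strand overlaps it.

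In the ATP synthase the catalytic and rotor genes differed little. Atp5b was at 604, 466 and 452 FPKM in the AE+Meis2 libraries, 534, 489 and 474 in AE9a+Meis2 and 445 and 522 in AE9a, with log2 differences of 0.01 to 0.06. The c ring is encoded by Atp5g1, Atp5g2 and Atp5g3, whose mature proteins are identical. Their shares of the summed FPKM were 13.1% to 16.1%, 40.9% to 48.7% and 36.2% to 43.8% over the 8 libraries, and no group held a range of its own for Atp5g3. Atp5g2 had 394, 348 and 328 FPKM in AE+Meis2, 400, 449 and 406 in AE9a+Meis2 and 390 and 373 in AE9a, with AE+Meis2 below AE9a+Meis2 by -0.23 ± 0.16. The similar copies of these genes, and the processed pseudogenes known for many subunit genes, could share reads. Atp5l, subunit g, was at 321 to 554 FPKM with overlapping groups, and an exon of Gm30934 on the opposite strand overlaps it.

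Atp5s, known as coupling factor B and scarce here, was at 5.84, 7.49 and 6.07 FPKM in the AE+Meis2 libraries, 2.69, 4.86 and 2.94 in AE9a+Meis2 and 4.68 and 6.92 in AE9a. The AE9a+Meis2 libraries were the low ones, and only AE9a replicate 1, at 4.68 FPKM, lay within their range. The log2 difference of AE+Meis2 from AE9a+Meis2 was 0.76 ± 0.26 (limma, unadjusted p = 0.023, Benjamini-Hochberg adjusted p = 0.63), and that of AE9a+Meis2 from AE9a was -0.61 ± 0.29. On this scale the pseudocount of 1 narrows differences of a gene at such a level.

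Genes that build or serve the chain were counted from 7 further lists, and limma with Benjamini-Hochberg adjustment called 0 genes of any list in any comparison. At an unadjusted p under 0.05, of 122 genes tested there was 1 in AE9a+Meis2 against AE9a (lower, as were 1.13% of all genes), 1 in AE+Meis2 against AE9a+Meis2 (lower, as were 4.05%) and 2 in AE+Meis2 against AE9a (higher, as were 2.95%), so none of these shares exceeded that of all genes. Ecsit, a complex I assembly factor, was at 10.5, 6.72 and 6.73 FPKM in AE+Meis2, against 13.8, 12.5 and 11.3 FPKM in AE9a+Meis2 (log2 difference -0.62 ± 0.22, limma unadjusted p = 0.026, adjusted p = 0.66). Surf1, an assembly factor of complex IV, was at 30.8, 45.5 and 30.6 FPKM in AE+Meis2, against 21.2 and 24.3 FPKM in AE9a (0.60 ± 0.23, limma unadjusted p = 0.034, adjusted p = 0.78). Yy1, one of the regulators whose core was sought above, was at 39.5, 54.9 and 51.8 FPKM in AE+Meis2, against 29.8 and 36.6 FPKM in AE9a (0.53 ± 0.21, limma unadjusted p = 0.037, adjusted p = 0.80). Etfdh, which feeds electrons from fatty acid oxidation to ubiquinone, was at 23.0, 25.3 and 24.5 FPKM in the AE9a+Meis2 libraries, against 31.9 and 38.4 FPKM in AE9a (-0.51 ± 0.20, limma unadjusted p = 0.039, adjusted p = 1.0). These 4 genes were picked by their unadjusted p in the same libraries, a choice that favours groups without overlap. In none of the 4 did the compared groups overlap. The share of all genes without overlap was 6.49% in the direction and comparison of Ecsit. It was 9.96% in those of Surf1 and Yy1 and 10.7% in those of Etfdh.

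By list, the members higher and lower in AE9a+Meis2 against AE9a were 4 and 10 of the 14 complex I assembly genes tested (median log2 -0.03), 3 and 5 of 8 for complexes II and III (-0.07) and 10 and 14 of 24 for complexes IV and V (-0.04). They were 5 and 15 of 20 electron carriers and nucleotide exchangers (-0.07), 10 and 8 of 18 tricarboxylic acid cycle genes (0.02), 6 and 10 of 16 biogenesis regulators (-0.06) and 8 and 14 of 22 import and cristae genes (-0.03). The same counts for the subunit genes were 73 and 8, and the difference from these lists was not tested. In AE+Meis2 against AE9a+Meis2 the counts, in the same order, were 9 and 5 (0.08), 8 and 0 (0.25), 16 and 8 (0.12), 11 and 9 (0.10), 10 and 8 (0.06), 13 and 3 (0.14) and 14 and 8 (0.11). In AE+Meis2 against AE9a they were 9 and 5 (0.05), 6 and 2 (0.27), 13 and 11 (0.05), 11 and 9 (0.04), 9 and 9 (0.001), 11 and 5 (0.13) and 11 and 11 (0.0015). Citrate synthase, Cs, often used as a measure of mitochondrial content, had 80.5, 71.5 and 83.9 FPKM in AE+Meis2, 91.1, 94.3 and 97.2 in AE9a+Meis2 and 73.7 and 99.5 in AE9a (-0.26 ± 0.17 for AE+Meis2 against AE9a+Meis2).

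The low library was not low for all of these lists. In AE+Meis2 replicate 2 the median deviation was -0.25 for the tricarboxylic acid cycle genes, -0.03 for complex I assembly, 0.02 for electron carriers, 0.04 for assembly of complexes IV and V, 0.05 for import and cristae, 0.21 for biogenesis regulators and 0.45 for assembly of complexes II and III, against -0.35 for the subunit genes. Sdhaf2, an assembly factor of complex II, was at 15.3, 23.9 and 17.2 FPKM in the AE+Meis2 libraries, 12.6, 15.0 and 13.6 in AE9a+Meis2 and 15.1 and 15.3 in AE9a, highest in the library where Sdhb was lowest. Vdac1, the main channel of the outer membrane, had 96.1, 97.9 and 96.7 FPKM in AE+Meis2, 72.7, 87.8 and 87.4 in AE9a+Meis2 and 94.8 and 106 in AE9a, with no drop in that library.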

How the data were processed

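Bone marrow RNA of 8 libraries was sequenced. The authors deposited 1 table of FPKM for 23997 genes, made with TopHat, Cufflinks and Cuffdiff on mm10 per the submitters' processing notes. Their versions, the annotation and any normalization between libraries were not given in the sources used here. The table holds no counts, so depth and counting error are unknown. Groups came from the sample titles. Values were tested as log2(FPKM + 1) for 12565 genes with at least 1 FPKM in at least 2 libraries, using limma 3.58.1 (R 4.3.3) with 1 coefficient per group over all 8 libraries, an intensity trend and Benjamini-Hochberg adjustment over all genes, threshold 0.05. Fold changes on this scale are understated for low genes. Python 3.11.15 with matplotlib 3.10.9, NumPy 2.4.6 and pandas 2.3.3 made tables and figures.

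The members, the 7 pathway lists and the cell markers were chosen with earlier results of these data known. Members named are those past the threshold, per complex the 4 with the smallest p and the 2 with the highest mean, all isoform sets, all complex II genes and all untested genes, with up to 3 genes per pathway list; others named were chosen after their values were seen. Coordinates are RefSeq's on GRCm38.p6, and all 84 symbols matched, 3 as synonyms. Exons of other genes overlap those of 23 members. On simulated data the fit recovered, of 50 genes changed by a log2 of 0.5, 1, 2 and 4, 0%, 10%, 64% and 82% (AE+Meis2 against AE9a+Meis2) and 0%, 6%, 46% and 82% (AE+Meis2 against AE9a), over 12565 genes. No pair of libraries shared a value above 1 FPKM. Alternatives were another pseudocount (0.1), no filter or one of 5 FPKM, quantile scaling, scaling to the summed FPKM without small RNA, small RNA and genes at 0 in a group left out, only the compared groups, no trend, a replicate block, each library left out and both libraries with values in silent families left out.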

Additional observations from a re-analysis of the deposited data

How the results depend on the processing

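The number of members called was 0 in each comparison under each of the 18 alternatives, and the differences of members at an unadjusted p under 0.05 kept their direction under all of them: Cox6b2 in both Meis2 groups against AE9a, Ndufa4 in AE+Meis2 against each other group, and Atp5s and Ndufs7 in AE+Meis2 against AE9a+Meis2. These genes were picked by their p in the same data, and that p did not stay under 0.05 for all. With scaling to the summed FPKM the unadjusted limma p for AE+Meis2 against AE9a+Meis2 was 0.35 for Ndufa4, 0.14 for Atp5s and 0.033 for Ndufs7. For the comparisons of AE+Meis2 the simulated data bound what a count of 0 can say: a log2 of 0.5 was not recovered. AE9a+Meis2 against AE9a was not simulated. The changed genes were not limited to members, whose median SE was 0.23, against 0.30 over all genes, for AE+Meis2 against AE9a+Meis2. With quantile scaling the median log2 difference in AE9a+Meis2 against AE9a was -0.081 over members and -0.028, -0.028, -0.13, -0.092 and -0.13 from complex I to complex V, each of them positive under the deposited scaling. For AE+Meis2 against AE9a+Meis2 it was -0.28, -0.25, -0.32, -0.19 and -0.15 in turn, and for AE+Meis2 against AE9a it was -0.31 over members and -0.31, -0.27, -0.40, -0.27 and -0.31 from complex I to complex V. Scaled to the summed FPKM without small RNA it was -0.36 over members and -0.40, -0.35, -0.41, -0.33 and -0.28 from complex I to complex V for AE+Meis2 against AE9a+Meis2. For AE+Meis2 it was -0.40 and -0.41, -0.31, -0.42, -0.32 and -0.31 in turn, set against AE9a. With scaling to the summed FPKM, part of these medians is the shift of all genes given beside the splits. With quantile scaling the median over all genes was -0.040 for AE9a+Meis2 against AE9a and 0.019 for AE+Meis2 against AE9a+Meis2. It was -0.014 for AE+Meis2 against AE9a. What else lay behind the medians was not tested. Leaving out 1 library at a time, the median of AE+Meis2 against AE9a+Meis2 ran from -0.22 (without the library labelled AE+Meis2 replicate 1) to 0.055 (without AE+Meis2 replicate 2) over members and from -0.26 to 0.034 in complex I.

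Over all genes the calls were few and unsteady. Leaving out 1 library at a time gave 2 to 9 called genes in AE9a+Meis2 against AE9a in place of 6, 6 to 23 for AE+Meis2 against AE9a+Meis2 in place of 5 and 1 to 10 for AE+Meis2 against AE9a in place of 4, the highest counts coming without AE+Meis2 replicate 3. Without small RNA and genes at 0 in a group limma called 0 in each comparison. Called genes were 3 without both libraries with values in silent families (AE9a+Meis2 against AE9a), 14 with scaling to the summed FPKM (AE+Meis2 against AE9a+Meis2), and for AE+Meis2 against AE9a 0 with that scaling, 1 without the filter and 2 with only both groups in the fit. The replicate numbers did not pair the libraries, same-numbered ones having correlations of deviations of -0.03 to 0.13. With the replicate number as a block, 2 genes were called for AE9a+Meis2 and 0 for AE+Meis2, each against AE9a, and 0 members in each comparison.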
